A study of Mus musculus with 2 samples.

Results

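The simple epithelial keratins described here are 6 genes, Krt7, Krt8, Krt18, Krt19, Krt20 and Krt23, taken by name from the non-control probes of the arrays. They were represented by 7 of 39429 probes and made up 6 of 31894 gene names. Liver RNA of C57BL/6 mice was measured on 2 single-colour arrays. The wild-type group was 1 array of a wild-type liver. The other group was 1 array of a liver with the genotype Alb-Cre;CAG-floxed neo-Snail. By its name it joins a Cre recombinase under the hepatocyte-active albumin promoter with a Snail transgene that has the ubiquitous CAG promoter and a floxed neo cassette. The labels give neither age nor sex of the animals. The design text asks how gene expression in the 2 livers differs, and with 1 array per group no difference has a replicate check or a p-value.

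Keratins are the intermediate filament proteins of epithelial cells, and a filament needs a type I and a type II partner. Krt8 (type II) and Krt18 (type I) are the pair of the adult hepatocyte, where their filaments protect the cell against mechanical and toxic stress. Krt7 (type II) and Krt19 (type I) are added in bile duct cells and serve as markers of bile ducts and of ductular reactions. Krt20 (type I) is best known from intestinal and urothelial epithelium. Krt23 is a type I keratin known to be induced in stressed and diseased liver.

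Most members were read by a single probe, so the probes that carry the result are shown first. Capitals mark a stop triplet in the Krt18 probe, the only one shown with a stop in all 3 reading frames, and it is the last of their 3 first stops. The Krt8 probe shown, called the first, lies on chromosome 15 from 101828827 to 101828886 (mm9, minus strand). The Krt18 probe lies on the same chromosome from 101862341 to 101862400 (plus strand), and its capitals stand at base 50 of 60 onward. The Krt23 probe lies on chromosome 11 from 99339393 to 99339452 (minus strand). The Krt7 probe, on chromosome 15 from 101253718 to 101253777, and the Krt19 probe, on chromosome 11 from 100002392 to 100002451, are shown because they carry the negative result.
Krt8, first probe: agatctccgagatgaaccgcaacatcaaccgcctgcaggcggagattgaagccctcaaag
Krt18: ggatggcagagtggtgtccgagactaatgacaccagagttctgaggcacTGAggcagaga
Krt23: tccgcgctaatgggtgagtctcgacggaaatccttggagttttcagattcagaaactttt
Krt7: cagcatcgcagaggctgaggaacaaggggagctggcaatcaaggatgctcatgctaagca
Krt19: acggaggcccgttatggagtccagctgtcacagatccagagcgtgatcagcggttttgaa

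A second Krt8 probe lies 1629 bases further toward the 3' end, on chromosome 15 from 101827138 to 101827197, and holds the polyadenylation hexamer AATAAA at base 33. The Krt20 probe lies on chromosome 11 from 99289776 to 99289835. The Krt8 and Krt18 probes are 33454 bases apart and on opposite strands. Krt18, although a type I gene, sits at the edge of the type II cluster. GC content of the 7 probes ran from 40.0% in the second Krt8 probe to 55.0% in the first Krt8, Krt18, Krt7 and Krt19 probes. The longest run that any of them shared with a probe of another gene on the array was 15 bases. Hybridisation of transcripts from processed pseudogenes of Krt8 or Krt18 was not examined.

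The scanner software called 50.7% of 43020 spots well above background in wild-type and 54.0% in the other library, control spots aside. A scaled signal is the processed signal divided by the 75th percentile of its array, which was 232.7 in wild-type and 302.1 in the second library. Errors given after ± on signals and on log2 differences are the scanner software's own estimate, carried over to differences, and hold no spread between animals. For the member probes measured on both arrays this estimate was close to a fixed fraction of the signal. Each of their log2 differences therefore has the same error, 0.20. The spread of the log2 difference between repeat spots of 1 probe was smaller, with a median SD of 0.04 above a signal of 1000, 0.07 from 100 to 1000 and 0.19 below 100. Snai1, the gene of the transgene, had signals of 23.2 and 22.3 (log2 difference -0.44). No source used here says whether its probe reads the transgene, and the second liver is therefore called the library labelled Snail.

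In the library labelled Snail the 2 hepatocyte keratins stood on opposite sides of wild-type, Krt23 was 3.92-fold higher, and the bile duct keratins were not well above background on either array. Of the 6 members 3 were measured on both arrays (Krt8, Krt18 and Krt23), Krt20 in the library labelled Snail alone, and Krt7 and Krt19 on neither. Among all gene names 54.3% passed that call on at least 1 array, 4.37% in the library labelled Snail alone and 45.7% on neither, so the members' shares rest on counts too small to set apart from these. Of the 3 members measured on both arrays Krt23 alone was at least 2-fold higher, against 3.96% of the 15467 genes measured on both arrays, and 0 were at least 2-fold lower, against 6.34%. Whether Krt20 passed 2-fold is unknown, since its difference has only a lower bound.

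**Figure D1:**
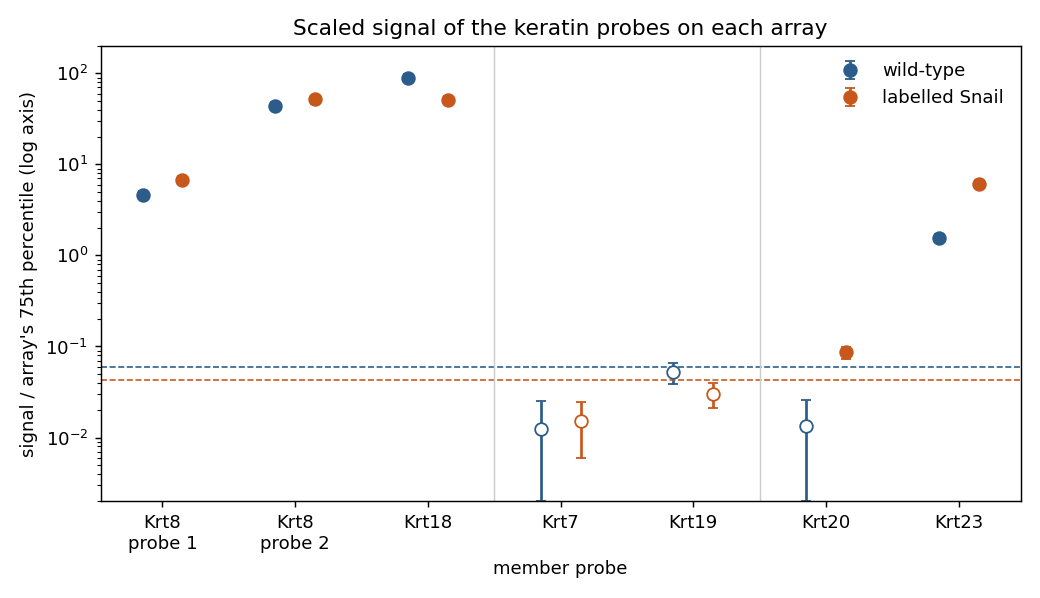
Scaled signal of each keratin probe (log axis, processed signal divided by the array's 75th percentile) for wild-type and for the array labelled Snail; filled points were well above background, open points were not, bars are the scanner software's error (bars that reach the lower edge run to near 0), and dashed lines are the lowest signal well above background on each array. Both Krt8 probes lie higher and Krt18 lower in the library labelled Snail, Krt23 stands at 1.57 and 6.14, and both bile duct keratins lie under the dashed lines.

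Krt8, the type II keratin of hepatocytes, was higher by both of its probes. The first probe had a signal of 1085 ± 109 in wild-type and 2025 ± 203 in the library labelled Snail, or 4.66 and 6.70 after scaling, a log2 difference of 0.52 ± 0.20 (1.44-fold). The second had 10124 ± 1012 and 15601 ± 1560, or 43.5 and 51.6 after scaling, a log2 difference of 0.25 ± 0.20 (1.19-fold). The 2 probes differed by 0.28 ± 0.29 on the log2 scale, within the scanner error but well above the median repeat-spot SD of 0.04 at signals above 1000. Their mean was 0.39 ± 0.14 (1.31-fold), and 17.8% of measured genes had a difference as high or higher. Neither probe reached 2-fold. Among the 5347 probes with a signal above 1000, where the first probe lies, 5.80% were as high or higher. Among the 1333 probes with a signal above 10000, where the second probe lies, 13.6% were as high or higher.

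Krt18, the type I partner of Krt8, was lower. Its signal was 20928 ± 2093 in wild-type and 15347 ± 1535 in the library labelled Snail, and 89.9 against 50.8 after scaling. The log2 difference was -0.82 ± 0.20, or 1.77-fold lower. Over all measured genes 8.82% were as low or lower, and among the 1333 probes above a signal of 10000 the share was 13.4%. Probes of that brightness had a median log2 difference of -0.15, against -0.03 over all measured genes. Krt18 thus lay below the median of the bright probes but within their lower range.

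A shift common to all probes of an array cancels in the contrast between the partners, since both were read on the same arrays. Krt8 minus Krt18 was 1.21 ± 0.25 on the log2 scale, a 2.31-fold shift of the ratio of Krt8 to Krt18 signal. Taken with each Krt8 probe alone it was 1.35 ± 0.29 and 1.07 ± 0.29. Under the 10 alternative ways of processing it stayed between 1.07 and 1.21, and under each of them Krt8 was above 0 and Krt18 below 0. The alternatives that shift a whole array by a constant, or change only the filter or the outlier spots, left the contrast unchanged. Their mean, -0.22 ± 0.12, describes neither gene and was close to 0 under quantile normalization, at 0.012. In the authors' deposited value table the signals were 1197 and 1852 for the first Krt8 probe, 10749 and 14718 for the second, and 22019 and 14496 for Krt18, so the direction of each was the same there.

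**Figure D2:**
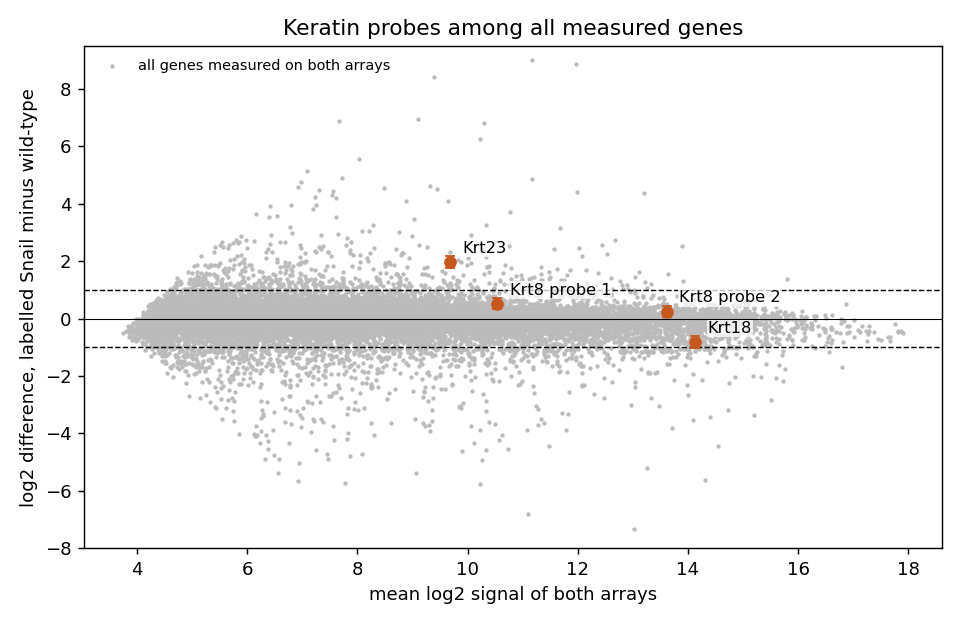
Log2 difference (labelled Snail minus wild-type) against mean log2 signal for the 15467 genes measured on both arrays (grey) and the keratin probes measured on both (orange, bars are scanner error); dashed lines mark 2-fold. Krt23 lies above the upper line, at 1.97, while both Krt8 probes and Krt18 lie inside the lines on opposite sides of 0.

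All 15 measured hepatocyte marker genes, listed beside the hepatocyte keratins, had log2 differences below 0, with a median of -0.65 and 4 at least 2-fold lower (Apoa1, Tat, Cyp2e1 and Tdo2). Most of these markers are bright. The 1077 genes with a signal above 10000 had a median of -0.15, with 9.10% at least 2-fold lower and 0.46% higher. Over all measured genes 6.34% were at least 2-fold lower. Apoa1, the main apolipoprotein of HDL, was 8.22-fold lower, the tyrosine-degrading Tat 2.51-fold, the cytochrome Cyp2e1 2.41-fold and the tryptophan-degrading Tdo2 2.60-fold. Albumin (Alb) had a log2 difference of -0.63 and the hepatocyte transcription factor Hnf4a -0.24, both turning above 0 under quantile normalization, at 0.04 and 0.07, and in the authors' deposited table. Under those 2 settings 10 of 15 markers stayed below 0, and the list's median ranged from -0.72 to -0.27 over the 10 alternatives. Cyp2e1 was under 2-fold in 2 of them, at -0.92 with quantile normalization and -0.96 in the authors' deposited table. The summed scaled signal of the list was 7619 in wild-type and 5168 in the library labelled Snail. Krt18, at -0.82, lay within the range of these markers, and Krt8 lay above all 15, whose highest value was -0.08. In bulk liver, fewer hepatocytes and less RNA per hepatocyte cannot be told apart, and the part of either in the Krt18 value was not tested.

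The bile duct keratins gave no measurable difference. Krt7 had signals of 2.91 ± 2.90 in wild-type and 4.63 ± 2.81 in the library labelled Snail, and Krt19 had 12.1 ± 3.02 and 9.15 ± 2.80. The lowest signals well above background were 13.8 and 12.9 on the respective arrays. Krt19 thus lay under that level on both, just under it in wild-type, and Krt7 lay far under it. By the software's weaker call, of a signal significantly above background, Krt19 passed on both arrays and Krt7 only on the array labelled Snail. No fold is given for either gene. Neither gene was thus measurable with these probes, which does not show that it was absent, and a difference between hepatocyte and bile duct keratins has no value.

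Other bile duct markers were mixed. Of 22 cholangiocyte and progenitor markers 12 were measured on both arrays and 8 on neither. Among those on neither array were the surface protein Epcam (signals 3.83 and 6.25), the chloride channel Cftr (6.56 and 9.07) and the secretin receptor Sctr (at most 12.3 and 13.1 over its 4 probes). Past 2-fold, 2 of the 12 were higher and 3 lower. Their median log2 difference was -0.27, and the summed scaled signal of the list was 36.8 and 40.5. The higher ones were the RNA-binding protein gene Bicc1 (11.2-fold) and the duct transcription factor Sox9 (2.92-fold, signals 30.2 and 114.2). The lower ones were Prom1 (3.42-fold), the bile acid transporter Slc10a2 (2.45-fold) and the transcription factor Onecut1 (2.15-fold). With normexp background correction the log2 difference of Sox9 was 0.64 in place of 1.55. The lower calls of Onecut1, at -0.84, and Slc10a2, at -0.98, were then lost. A second Prom1 probe failed the background call on both arrays.

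Krt23 had the largest difference of the 3 members measured on both arrays. Its signal was 364.3 ± 36.5 in wild-type and 1855 ± 185 in the library labelled Snail, 1.57 and 6.14 after scaling. The log2 difference was 1.97 ± 0.20, or 3.92-fold higher, and 130 of 15467 measured genes (0.84%) were as high or higher. Over the 10 alternatives it ranged from 1.91 to 2.06, though the filters, kept outlier spots and the choice of the brightest probe left it unchanged. Set against the hepatocyte pair, its difference exceeded that of Krt8 by 1.59 ± 0.25 and that of Krt18 by 2.80 ± 0.29 on the log2 scale. Both values are larger than the scanner error and the spot spread, which are the only errors these data hold. The authors' deposited table gave Krt23 values of 407 and 1690.

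Krt20 was seen in 1 library only, at a low level. Its signal was 3.09 ± 2.88 in wild-type, which was not well above background, and 26.0 ± 3.80 in the library labelled Snail, which was, while the software's weaker call passed on both. Against the lowest signal well above background on the wild-type array it was at least 1.45-fold higher after scaling. On the log2 scale this bound was 0.54, and 0.14 with normexp. Krt20 and Krt23 are neighbours in the type I cluster, with 49557 bases between their probes. Of 8 intestinal epithelium markers 4 were on neither array, namely the transcription factor genes Cdx1 and Cdx2, the cadherin gene Cdh17 and the mucin gene Muc2. The brush border gene Vil1 was at least 13.5-fold higher (signals 2.98 and 242.1), the trefoil factor gene Tff3 at least 2.23-fold higher (4.47 and 39.9) and the galectin gene Lgals4 2.29-fold higher, while the fatty acid binding protein gene Fabp2 had a log2 difference of 0.08. The summed scaled signal of that list was 21.7 and 27.6, most of it from Fabp2 (signals 4332 and 5959). The part of intestinal epithelium in the Krt20 signal was not tested.

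**Figure D3:**
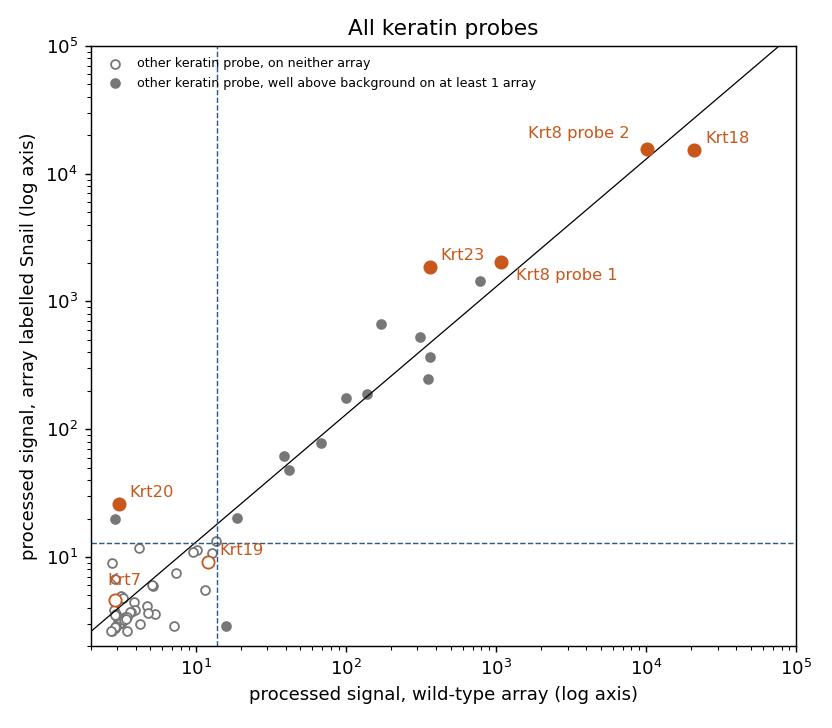
Processed signal of all keratin probes on the wild-type array (x, log axis) and the array labelled Snail (y, log axis); orange points are the simple epithelial keratins, grey points the other keratins, open points were well above background on neither array, dashed lines are the lowest signals well above background (13.8 and 12.9), and the solid line is equal scaled signal. Krt23 and Krt8 lie above the solid line, Krt18 lies below it, and Krt7 and Krt19 sit with the undetected keratins at the lower left.

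The rest of the keratin family was mostly not well above background in either liver. Of 48 other keratin names 10 were measured on both arrays, 1 was detected in the library labelled Snail alone, 1 in wild-type alone and 36 on neither, with signals of at most 13.8 and 13.3. The measured 10 had a median log2 difference of 0.08, and past 2-fold 1 was higher and 0 lower. The higher one was the hair keratin Krt31, 2.97-fold, with signals of 172.9 and 667.6. Krt73, a keratin of the hair root sheath, had signals of 353.7 and 247.5 (log2 difference -0.89), and Krt222 had 787.6 and 1447 (0.50). Krt222, Krt10, Krt2, Krt13 and Krt85 each had a further probe that failed the background call on both arrays. Krt10 had a log2 difference of 0.43, Krt79 0.29, Krt85 0.09, Krt16 0.08, Krt2 -0.19, Krt13 -0.28 and Krt80 -0.37. The Krt85 value is the mean of probes of opposite sign, at 0.37 and -0.20. Krt25 was at least 1.11-fold higher (2.91 and 19.9) and Krt90 at least 1.61-fold lower (16.0 and 2.90).

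Keratins of stratified epithelium were mostly not well above background, and the part of skin or other surface tissue in either sample was not tested. Of 11 such keratins 3 were measured on both arrays (Krt10, Krt13 and Krt16), and 8 were on neither, among them the basal pair Krt5 and Krt14. Among all gene names 45.7% were on neither. Trp63, the master regulator of stratified epithelium, had bright signals of 1907 and 6262 at 1 probe (2.53-fold higher), and its second probe failed the background call on both arrays. Of the 8 stratified epithelium markers Lor, a cornified envelope gene, had signals of 30.4 and 73.9 (log2 difference 0.90) and Sprr1a 15.9 and 13.7 (-0.60). The other 5, Krt5, Krt14, Dsg3, Krtdap and Ivl, were on neither array. The summed scaled signal of the 8 was 8.58 and 21.2, nearly all of it from the bright Trp63 probe, so it does not describe the list. Mesothelial cells, the keratin-rich lining of the liver surface, left little signal. Of their 8 markers Msln (log2 difference -0.47) and Cldn15 (-0.57) were measured, and 6, including Upk3b and Wt1, were on neither array.

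Among non-keratin intermediate filament genes 7 of 16 were measured, with a median log2 difference of 0.06 and 0 past 2-fold in either direction. Vim, the filament gene of mesenchymal cells, had 0.90 (signals 185.8 and 450.9), and the nuclear lamin gene Lmna 0.58. The lamin gene Lmnb1 had -0.66 and Lmnb2 0.24. The muscle and stellate cell gene Des was on neither array, at 3.96 and 6.28. The median of the same 7 genes was -0.11 with normexp.

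Proteins that tie keratin filaments to desmosomes and to other parts of the cell were split. Of 18 names on the list 16 were measured. Past 2-fold, 1 was higher and 4 lower, around a median of 0.00. In share, 25.0% of the measured names were at least 2-fold lower against 6.34% of all measured genes, on a count of 4. This share was not particular to the linkers. It was 26.7% for hepatocyte, 25.0% for cholangiocyte and 33.3% for stellate cell markers. For keratin-binding, modifying and degrading proteins it was 8.70%, and for other keratins 0%. The desmosomal gene Perp was 30.2-fold lower (signals 5942 and 255.7), the plakophilin Pkp2 16.7-fold (1130 and 87.6), the keratin-organising epiplakin Eppk1 5.83-fold (535.8 and 105.4 at the first of 2 probes) and envoplakin Evpl 2.90-fold (54.0 and 24.2). With normexp the log2 difference of Evpl was -0.64 in place of -1.54, that of Eppk1 -1.88 in place of -2.54, and that of Pkp2 -3.28 in place of -4.06. The plakophilin Pkp4 was 2.44-fold higher. The main keratin linker of the desmosome, Dsp, had 0.00, the mean of probes of opposite sign, at -0.13 and 0.13. The cytolinker plectin had 0.51 under Plec and 0.24 under its older name Plec1, and both names are in the count. The desmosomal cadherin Dsg2 had -0.87 and periplakin Ppl -0.85. Pkp1 was at least 1.56-fold higher (4.02 and 27.9), and plakoglobin (Jup) was on neither array.

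Genes for keratin-binding, modifying and degrading proteins also went both ways, around a median of 0.01. Past 2-fold, 2 of the 23 measured were higher and 2 lower. The transglutaminase Tgm1, which crosslinks proteins of the epithelial cell envelope, was 16.3-fold lower (signals 247.8 and 19.7), and the small heat shock protein gene Hspb8 2.89-fold lower. Another small heat shock protein gene, Hspb1, was 2.26-fold higher (4452 and 13070) and the kinase gene Prkcd 2.39-fold higher. With normexp the log2 difference of Tgm1 was -2.24 in place of -4.03 and that of Prkcd 0.60 in place of 1.26. Sqstm1, which encodes the p62 protein found with keratins in Mallory-Denk bodies, had a log2 difference of 0.08. Tgm2, the crosslinking enzyme of those bodies, had 0.52, and Casp6, a caspase that cuts Krt18, 0.87.

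**Figure D4:**
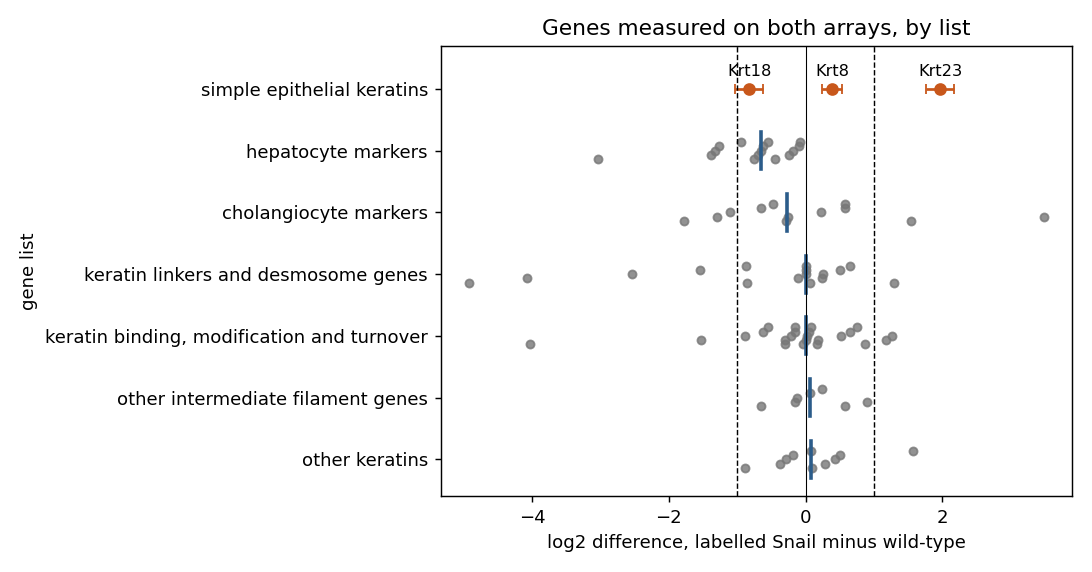
Log2 difference (labelled Snail minus wild-type) of each gene measured on both arrays, by gene list; blue bars are list medians, dashed lines mark 2-fold, and the top row shows Krt18, Krt8 and Krt23 with scanner error. Hepatocyte markers lie on the lower side with Krt18, Krt8 lies to the right of them, and the linker list spreads down to -4.92 around a median of 0.00.

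Of 21 epithelial transcription and splicing regulators 9 were measured on both arrays. Beside Sox9 and Trp63, 0 of them were past 2-fold in either direction. The splicing regulator gene Esrp2 had -0.88, the factor gene Klf4 0.79, and the repressors Zeb1 and Zeb2 had 0.16 and 0.55. Snai2, a repressor of the Snail family, was detected in wild-type alone, and with signals of 288.6 and 16.0 it was at least 23.4-fold lower in the library labelled Snail, a bound since the second signal was not well above background. The grainyhead factors Grhl1, Grhl2 and Grhl3 and Ovol1, Elf3, Klf5 and Twist1 were on neither array.

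Snail proteins bind the E-box CAGGTG, so the 250 bases before the start site of each member were searched for CAGGTG or CACCTG, its reverse complement, which covers both strands. A window was available for 5 members from RefSeq (GRCm38.p6), all but Krt19. Krt7, Krt8, Krt18 and Krt23 each held 1 match and Krt20 none, while 17.2% of 32851 windows of the same length held at least 1. The match begins 111 bases before the start in Krt8, 214 in Krt18, 232 in Krt23 and 44 in Krt7. Genes with a match thus had a higher value (Krt8, Krt23), a lower value (Krt18) and no measurable value (Krt7). The match is a description of letters, and binding was not measured. The windows of the 3 members measured on both arrays are shown with the match in capitals.
Krt8, chr15:102004343-102004592, minus strand: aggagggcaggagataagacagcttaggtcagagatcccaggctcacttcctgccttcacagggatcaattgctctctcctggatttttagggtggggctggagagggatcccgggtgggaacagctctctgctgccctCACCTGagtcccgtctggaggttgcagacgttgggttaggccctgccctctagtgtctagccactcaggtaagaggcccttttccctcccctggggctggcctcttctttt
Krt18, chr15:102027966-102028215, plus strand: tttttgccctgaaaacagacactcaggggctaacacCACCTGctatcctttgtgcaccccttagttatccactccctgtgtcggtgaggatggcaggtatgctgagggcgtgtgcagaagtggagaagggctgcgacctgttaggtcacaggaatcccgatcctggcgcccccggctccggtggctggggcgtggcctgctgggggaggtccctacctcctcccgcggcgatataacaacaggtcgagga
Krt23, chr11:99493121-99493370, minus strand: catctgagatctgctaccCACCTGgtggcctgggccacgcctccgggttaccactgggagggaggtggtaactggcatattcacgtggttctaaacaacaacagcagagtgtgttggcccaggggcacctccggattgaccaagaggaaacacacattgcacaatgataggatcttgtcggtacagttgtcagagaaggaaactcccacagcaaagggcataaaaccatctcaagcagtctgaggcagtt

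Of the other cell types of the liver, stellate cell markers lay below 0 in 6 of 6 measured (median -0.86), endothelial markers had a median of 0.05 with Lyve1 3.98-fold higher (log2 difference 1.99, and 1.32 with normexp), and Kupffer cell and macrophage markers a median of 0.12 with Marco 2.83-fold higher. Erythroid markers had a median of -0.19. Xist was measured on both arrays (log2 difference 0.18), and the Y-linked genes Ddx3y, Eif2s3y, Kdm5d and Uty were on neither.

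**Figure D5:**
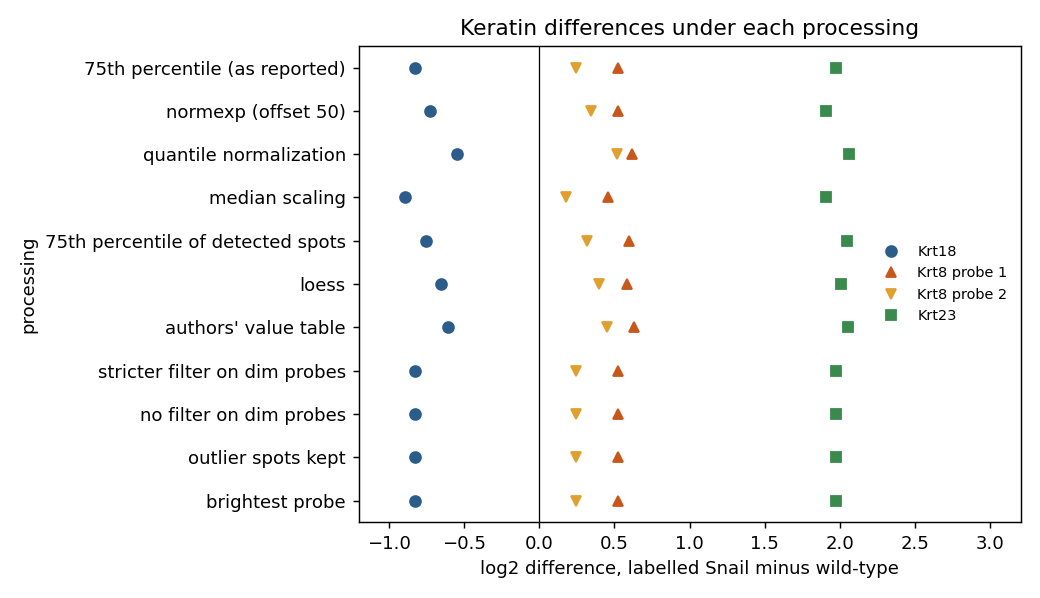
Log2 difference (labelled Snail minus wild-type) of the keratin probes measured on both arrays under the reported processing and the 10 alternatives. Krt18 stays left of 0 and both Krt8 probes and Krt23 stay right of it in every row, with Krt18 between -0.89 and -0.54 and Krt23 between 1.91 and 2.06.

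Across the alternatives shown in the plot of differences by processing, the first Krt8 probe ranged from 0.46 to 0.63 and the second from 0.18 to 0.52. Under median scaling the second probe, at 0.18, was within its scanner error of 0.20. The spread of the second probe over the alternatives was larger than its reported value of 0.25.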

How the data were processed

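Total RNA of liver was labelled with Cy3 and hybridised to Agilent arrays, per the labels' protocols. The submitters' processing notes name Agilent Feature Extraction 9.5.1.1. Per the file headers, the deposited intensity of each spot had its background subtracted and was detrended over the array, with no scaling from array to array. They also deposited a value table of 39429 probes, for which no source used here gives scale or centring. Its columns were linear, each followed its own array (r = 1.00 on log2 values), both had a median of 17.3, and their sorted values agreed to within 0.04%, as after quantile normalization.

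Log2 processed signal minus the log2 75th percentile of non-control spots was computed per array. Control spots and 287 spots marked as outliers on either array were left out, and 0 non-control spots were saturated. Spots of a probe were averaged, and genes take the mean of their probes well above background on both arrays. Where 1 array alone passed, the difference has a bound: the bright array's scaled signal over the higher of the dim array's own signal and the lowest signal well above background there. Probes were named through RefSeq accessions (GRCm38.p6, 26055 of 39429 probes matched), otherwise by the name in the files; Hspa1b, Pkcz, Emr1 and Hbb-b1 were on no probe under those names, and Plec1 is an older name of Plec.

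Genes were counted at 2-fold, with no test, since each group has 1 array. Repeat spots (239 probes with at least 5 spots) gave the technical spread. The number of arrays limits the precision. Named are all member probes, list genes at least 2-fold apart, other keratins seen on either array, and defining genes; of the cell types that only set the context, a part is named. Members and lists were chosen with earlier results of these data known. Alternatives were normexp (limma 3.58.1, offset 50), quantile normalization, median scaling, the 75th percentile of detected spots, loess, the authors' value table, a signal of at least 100 on both arrays, no filter, outlier spots kept, and the brightest probe. The functions were tested on simulated data.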

Additional observations from a re-analysis of the deposited data

How the results depend on the processing

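Of the 10 alternatives, quantile normalization and the authors' value table moved the log2 differences of the hepatocyte keratins by more than their scanner error. Krt8 was 0.57 and 0.54 there in place of 0.39, Krt18 was -0.54 and -0.60 in place of -0.82, and the mean of the pair was 0.012 and -0.031 in place of -0.22. Under loess that mean was -0.080. Krt23 and Krt8 minus Krt18 moved by less than their scanner error under all 10. The number of genes at least 2-fold higher was 297 with normexp and 262 under the stricter filter on dim probes, in place of 613, and the number at least 2-fold lower was 572 and 605 in place of 980; the stricter filter tests fewer genes, and the cause of the normexp counts was not tested. Of 137 further values, which are single probes, the Krt20 bound and medians of lists, 124 moved by less than 0.20, the scanner error of 1 probe, and 13 by more. That count does not measure stability. Some settings, such as kept outlier spots, returned nearly all of these values unchanged, and the error of 1 probe is a wide limit for a median of many genes. The bile duct keratins have no value under any of these settings, because neither was well above background, and without a filter they stand at the floor of each array; the same holds for their contrast with the hepatocyte keratins. Leaving out a replicate was not possible with 1 array per group. No paired analysis was possible because each group has 1 sample. Signals near background limit Krt7, Krt19 and Krt20, and differences between animals were not measured.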
